A study of Mus musculus with 40 samples.

Results

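MicroRNAs of total mouse blood were compared between the first and the last age of a longitudinal follow-up, 12 and 16.5 months. All 10 libraries labelled 12 months and all 10 labelled 16.5 months were used, 20 of the 40 libraries of the series. The libraries of 13.5 and 15 months entered the filter on low counts and a description of the course. The members were the mature microRNAs with more than 100 reads in at least 20 of the 40 libraries. Of 1915 microRNAs in the count table, 1016 had any read and 105 passed. Each arm of miR-486 entered as 1 row, since its a and b copies held equal counts, which left 103 microRNAs.

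The animals were male mice of the C57BL/6J background, kept singly, in a study that asked which circulating microRNAs move with age and memory performance. The same mice were bled repeatedly from the orbital sinus under isoflurane, in alternating eyes, into tubes with an RNA-stabilising solution. No group carried a transgene or received a drug as treatment. The paper places the later bleedings on the day after a memory test in the water maze. It describes the bleeding at 12 months in 2 ways, before any behavioural experiment and after habituation. The labels do not say which libraries came from trained mice and which from home-cage mice, so that age, maze experience and the number of earlier bleedings cannot be told apart. Whether libraries of the 2 ages were prepared and sequenced together is not stated either. A difference of preparation or sequencing can therefore not be told apart from age. The columns of the count table carry 10 numbers that recur at every age and may mark the mice, but the sources used here do not say so. P-values therefore treat the 20 libraries as independent, and the count with these numbers as a block stands beside the main result.

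MicroRNAs are short RNAs cut from a hairpin precursor. The guide strand is loaded into an Argonaute protein and pairs with messenger RNAs mainly through its seed, bases 2 to 8 from the 5′ end, and represses them. Both arms of a hairpin (5p and 3p) can be measured, and microRNAs with the same seed are grouped in a family. In whole blood most microRNA reads come from red cells, with contributions from leukocytes and platelets. Since blood was not separated, fewer cells of a type and less RNA per cell cannot be told apart.

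The mature sequences are shown first for the microRNAs with the smallest adjusted p that the RefSeq table (GRCm38.p6) holds. Families with the same seed in which some or all of the members shown were called follow. Last come miR-374b-5p and miR-374c-5p, whose rows of counts were identical but whose seeds differ. Of the 103 microRNAs, 90 were matched in that table, and of the 30 that changed, 26. Letters in capitals are the seed, and each sequence runs 5′ to 3′.
miR-3969: cCCUAAAGuagaaaucacua
miR-191-5p: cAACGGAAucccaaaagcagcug
miR-140-3p: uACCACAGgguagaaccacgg
miR-342-3p: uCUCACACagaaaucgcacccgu
miR-501-3p: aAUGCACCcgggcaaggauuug
miR-10a-5p: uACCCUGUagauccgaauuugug
miR-10b-5p: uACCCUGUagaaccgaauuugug
miR-148a-3p: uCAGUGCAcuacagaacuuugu
miR-148b-3p: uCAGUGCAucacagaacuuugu
miR-103-3p: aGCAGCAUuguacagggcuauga
miR-107-3p: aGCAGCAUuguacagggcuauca
miR-15a-5p: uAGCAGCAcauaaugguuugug
miR-15b-5p: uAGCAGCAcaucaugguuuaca
miR-16-5p: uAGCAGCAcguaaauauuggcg
miR-26a-5p: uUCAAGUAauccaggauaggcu
miR-26b-5p: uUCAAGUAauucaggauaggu
miR-30a-3p: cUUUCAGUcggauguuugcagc
miR-30e-3p: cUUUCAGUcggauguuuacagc
miR-181a-5p: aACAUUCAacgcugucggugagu
miR-181b-5p: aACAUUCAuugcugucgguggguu
miR-181c-5p: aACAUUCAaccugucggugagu
miR-146a-5p: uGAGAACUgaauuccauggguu
miR-146b-5p: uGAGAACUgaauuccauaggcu
miR-374b-5p: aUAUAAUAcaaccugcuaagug
miR-374c-5p: aUAAUACAaccugcuaagug
Some of these differ by very few bases. Counting positions from the 5′ end, the substitution is G22C from miR-103-3p to miR-107-3p, U12A from miR-10a-5p to miR-10b-5p and G18A from miR-30a-3p to miR-30e-3p. From miR-146a-5p to miR-146b-5p they are G18A and U21C, and from miR-148a-3p to miR-148b-3p C9U and U10C. The counts rest on reads mapped with 0 mismatches, but reads too short to span such a base fit both microRNAs and may have been counted for each.

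The libraries differed in depth. Totals, with miR-486 counted once, averaged 7503763 counts at 12 months (SD 2547895, n = 10) and 4747567 at 16.5 months (SD 2074663, n = 10). They were lower in 8 of 10 libraries of 16.5 months than the mean of 12 months, and the ages overlapped. The difference of means passed the test (permutation test, two-sided, adjusted p = 0.0332 over 2 measures), but the difference of medians did not (-2078745.5 counts, permutation p = 0.0641). miR-486a-5p, a red-cell microRNA, took 87.1% of the counts on average. All other microRNAs together held 13.4% ± 2.70 of the counts (SD, n = 10) at the younger age and 12.2% ± 3.78 (SD, n = 10) at the older, which did not pass the test (permutation, adjusted p = 0.42). This share was under 9% in 1 library of 12 months and 3 of 16.5 months, and the shallowest library, of 16.5 months, held 93002 counts outside miR-486 and stood apart from the rest by its mean correlation (connectivity Z -2.69). No pair of libraries of the same age was a duplicate.

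In total, 30 of 103 microRNAs (29.1%) changed between the ages (quasi-likelihood test of edgeR with Benjamini-Hochberg adjustment, threshold 0.05), 17 of them higher (16.5%) and 13 lower (12.6%) at 16.5 months. As the miR-374b-5p and miR-374c-5p rows were identical, these are 29 distinct sets of counts. Among the 103, the groups of libraries did not overlap for 4 (3.88%), miR-3969 and miR-191-5p, which were higher, and miR-140-3p and miR-501-3p, which were lower. Changes were mostly of moderate size. The absolute log2 fold change of the 30 had a median of 0.55. It was above 1 for 4 (miR-3969, miR-342-3p, miR-148a-3p and miR-532-5p) and under 0.5 for 14, while the median over all 103 was -0.0029. The call rests on the scaling by TMM (trimmed mean of M-values, which assumes that most microRNAs do not change). With scaling by library totals alone, 3 passed, 1 higher and 2 lower, and the median over the 101 microRNAs outside miR-486 moved from -0.02 to -0.26. With the recurring column numbers as a replicate block, 18 passed, 9 higher and 9 lower. The 12 that did not were miR-150-5p, miR-146a-5p, miR-130a-3p, miR-23a-3p, miR-425-5p, miR-30e-3p, miR-374b-5p, miR-374c-5p, miR-26b-5p, miR-15b-5p, miR-103-3p and miR-107-3p, with adjusted p between 0.061 and 0.204 (edgeR).

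**Figure D1:**
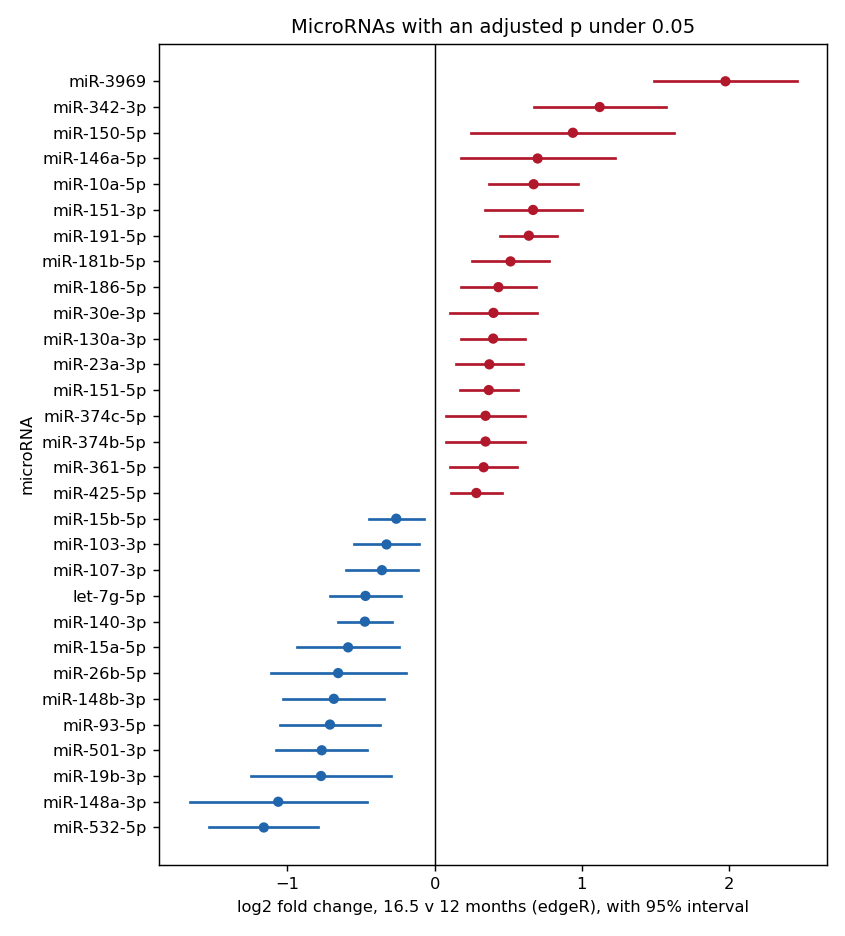
Log2 fold change at 16.5 against 12 months (x axis) of the 30 microRNAs with an adjusted p under 0.05 (y axis), with points for the edgeR estimate and lines for the 95% interval. Red marks the 17 that were higher and blue the 13 that were lower. miR-3969 lies farthest to the right at 1.98 and miR-532-5p farthest to the left at -1.16.

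miR-3969 showed the largest rise. Its level, here and below in log2 CPM (counts scaled to a common library size) after TMM scaling, ran from 4.04 over a median of 6.44 to 6.98 at 12 months. At 16.5 months it ran from 7.86 over 8.30 to 8.87, so that every library of 16.5 months lay above every library of 12 months. The level rose by a log2 of 1.98 (SE 0.23, edgeR adjusted p = 3.3e-06), a 3.94-fold difference, on 171 to 3258 counts per library. The hairpin Mir3969 lies on the minus strand of chromosome 5 (GRCm38, chr5:87595902-87595993) outside other annotated genes. A single library of 12 months, at 4.04, was well below the next at 6.19, and without it the log2 fold change was 1.85 (edgeR, adjusted p = 2.43e-09). On a scale common to the 40 libraries, the means were 6.14 at 12, 3.27 at 13.5, 2.40 at 15 and 8.23 at 16.5 months. Both ages between thus lay far below both ends, and the difference between 12 and 16.5 months is not a steady rise. With at least 171 counts each, the 20 libraries compared met the filter on counts without those of the ages between.

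miR-191-5p, among the most abundant microRNAs of blood, was also higher in every library of 16.5 months. It ran from 13.36 over 13.90 to 14.16 log2 CPM at 12 months and from 14.32 over 14.48 to 14.78 at 16.5 months, with a log2 fold change of 0.64 (SE 0.09, adjusted p = 3.9e-05, edgeR). It held 1.96% of all counts on average. Its cluster partner miR-425-5p moved the same way by a smaller amount (0.28, SE 0.08, adjusted p = 0.0153, 9 of 10 libraries above the mean of 12 months). Both hairpins lie in exons of the non-coding RNA 4833445I07Rik on the plus strand of chromosome 9, Mir191 at chr9:108568319-108568392 and Mir425 at chr9:108568777-108568861. Both arms of the miR-151 hairpin were higher as well, miR-151-3p by 0.67 (SE 0.16, adjusted p = 0.0043) and miR-151-5p by 0.37 (SE 0.09, adjusted p = 0.00622), each in 10 of 10 libraries against the mean of 12 months.

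Of the other 4 most abundant microRNAs, none passed the test. The log2 fold changes were 0.46 for miR-486a-5p (adjusted p = 0.19), 0.26 for miR-92a-3p (adjusted p = 0.505), -0.76 for miR-451a (adjusted p = 0.0603) and 0.15 for miR-25-3p (adjusted p = 0.297, edgeR). The red-cell list, which holds 3 of them, had 0 of 6 tested microRNAs called, against 29.1% over all 103. Its median log2 fold change was 0.11. Values within it went both ways, from -0.76 for miR-451a to 1.16 for miR-486a-3p. The erythroid microRNA miR-451a ran from 12.47 over 13.67 to 14.67 log2 CPM at 12 months and from 11.69 over 13.02 to 13.67 at 16.5 months, with the groups overlapping widely, and lay below the mean of 12 months in 8 of 10 libraries.

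Both tested members of the lymphoid list were called higher at 16.5 months, against 16.5% called higher over all 103, while miR-150-3p, miR-342-5p and miR-155-5p did not pass the filter on counts. With so few tested members, this count is no result about the list. miR-342-3p, abundant in B and T lymphocytes, ran from 4.28 over 5.07 to 5.45 log2 CPM at 12 months and from 4.98 over 6.17 to 6.87 at 16.5 months. The level rose by a log2 of 1.12 (SE 0.22, edgeR adjusted p = 0.000684), with 9 of 10 libraries above the mean of 12 months. It is encoded in an intron of Evl (chr12:108658620-108658718, plus strand). miR-150-5p, the marker of mature lymphocytes, was higher by 0.94 (SE 0.33, adjusted p = 0.0381), but only in 7 of 10 libraries, from 7.66 over 8.78 to 9.55 at 12 months and from 7.90 over 9.39 to 10.99 at 16.5 months. This call was lost in 9 of 17 other settings. Among them, it did not hold without the library that stood apart (0.73, adjusted p = 0.0979), without the library of 12 months with the lowest miR-3969 (0.93, adjusted p = 0.0547) or without the 4 libraries under 9% outside miR-486 (0.38, adjusted p = 0.299). The summed level of the 2 lymphoid microRNAs was 223 to 792 CPM at 12 months (median 471) and 271 to 2142 CPM at 16.5 months (median 737).

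No tested microRNA of the other cell-type lists passed the test, where 29.1% did over all 103. With so few tested members, these counts are no result about the lists. Of the myeloid and pan-leukocyte list, 0 of 3 tested were called (median -0.15), with -0.26 for miR-223-3p of neutrophils, -0.09 for miR-142a-5p of all leukocytes and -0.15 for miR-21a-5p. Their summed level was 4688 to 8331 CPM at 12 months and 4241 to 7536 CPM at 16.5 months. Of the platelet and endothelial list only miR-222-3p was tested (-0.18, adjusted p = 0.19), and miR-126a did not pass the filter in either arm. The liver and gut list had 0 of 3 called (median 0.05), and neither arm of miR-122 of hepatocytes passed the filter. The part of cell composition in the results was not tested.

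**Figure D2:**
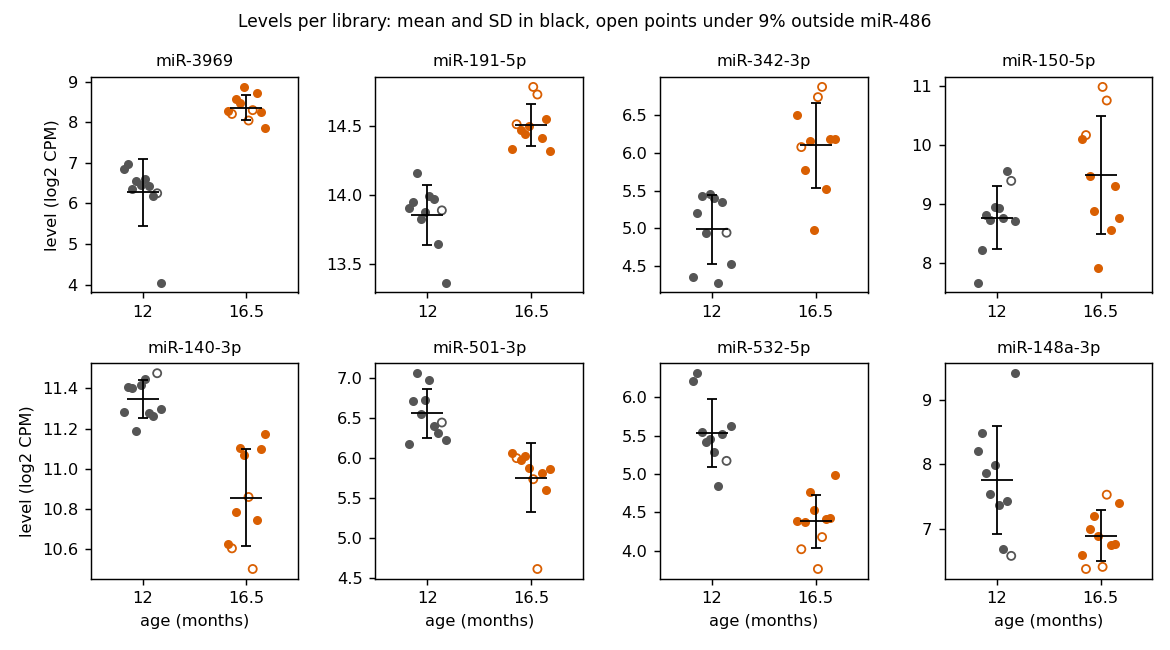
Level in log2 CPM after TMM scaling (y axis) of 8 microRNAs in each of the 20 libraries, by age in months (x axis), where points are libraries, horizontal lines are means, error bars are SD and open points are the 4 libraries with under 9% of counts outside miR-486. The ages do not overlap for miR-3969, miR-191-5p, miR-140-3p and miR-501-3p, and overlap for miR-150-5p, whose highest library of 16.5 months is at 10.99.

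Among the microRNAs that were lower, miR-532-5p of the X-linked cluster in introns of Clcn5 fell most. Only miR-532-5p and miR-501-3p of the 10 listed had enough reads, and both were called lower, where 12.6% were over all 103. A count from so few tested members is no result about the cluster. miR-532-5p ran from 4.84 over 5.49 to 6.31 log2 CPM at 12 months and from 3.76 over 4.39 to 4.99 at 16.5 months, with a log2 fold change of -1.16 (SE 0.18, adjusted p = 5.97e-05). miR-501-3p ran from 6.18 over 6.49 to 7.06 and from 4.62 over 5.87 to 6.07, with no overlap (-0.77, SE 0.15, adjusted p = 0.000684). The hairpin Mir501 lies at chrX:7241243-7241351 on the minus strand. The lowest of these values, 4.62, came from the shallowest library, in which miR-501-3p had 15 counts, and without it the log2 fold change was -0.70 (edgeR, adjusted p = 0.000609).

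Both tested members of the family of miR-148 and miR-152, which share a seed but lie on different chromosomes, were lower. Over all 103, 12.6% were called lower, and a count from so few tested members is no result about the family. miR-148a-3p ran from 6.57 over 7.70 to 9.42 log2 CPM at 12 months and from 6.37 over 6.82 to 7.53 at 16.5 months (-1.06, SE 0.29, adjusted p = 0.00985). miR-148b-3p, from an intron of Copz1, ran from 7.62 over 8.26 to 8.95 and from 7.22 over 7.51 to 8.24 (-0.68, SE 0.17, adjusted p = 0.00455). In each case the groups overlapped but 10 of 10 libraries of 16.5 months lay below the mean of 12 months. The highest miR-148a-3p of 12 months, 9.42, came from the same library as the lowest miR-3969, and without it the difference was -0.76 (adjusted p = 0.0188).

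The family of miR-103 and miR-107 and that of miR-15 and miR-16 also held lower members. The first is encoded in introns of the pantothenate kinase genes Pank1, Pank2 and Pank3, and the log2 fold changes were -0.33 for miR-103-3p (SE 0.11, adjusted p = 0.0268) and -0.36 for miR-107-3p (SE 0.12, adjusted p = 0.0271). In the second, known for repressing cell-cycle genes and Bcl2, 2 of 3 tested members were called, where 29.1% were over all 103. These were miR-15a-5p with -0.59 (SE 0.17, adjusted p = 0.0121) and miR-15b-5p with -0.26 (SE 0.09, adjusted p = 0.037), while the abundant miR-16-5p had -0.35 (SE 0.16, adjusted p = 0.114). Some of these calls were weak, and counts from so few tested members are no result about either family. Without the 4 libraries under 9% outside miR-486, the adjusted p was 0.0722 for miR-103-3p, 0.0683 for miR-107-3p and 0.147 for miR-15b-5p, and without the shallowest library it was 0.062 for miR-15b-5p (edgeR).

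Of the oncogenic miR-17-92 cluster and its paralogs, 2 of 9 tested members were called, both lower, with a median of -0.07. This share is near the 29.1% called over all 103, so the count is no result about the cluster. miR-93-5p, from within the replication gene Mcm7 (chr5:138165523-138165610, minus strand), ran from 6.99 over 7.58 to 8.27 log2 CPM at 12 months and from 6.28 over 6.99 to 7.32 at 16.5 months (-0.71, SE 0.16, adjusted p = 0.00326). miR-19b-3p, made from Mir17hg and an X-linked copy, was lower as well (-0.77, SE 0.23, adjusted p = 0.0153). None of the other 7 passed, with 0.70 for miR-25-5p, 0.26 for miR-92a-3p, 0.18 for miR-93-3p, 0.15 for miR-25-3p, -0.07 for miR-106b-3p, -0.23 for miR-18a-3p and -0.27 for miR-17-3p. Of the let-7 guide strands, a family of regulators of growth and differentiation, 1 of 8 was called, which is no more than the 29.1% over all 103. It was let-7g-5p (-0.47, SE 0.12, adjusted p = 0.00456), and the median of the 8 was -0.10. The single tested passenger strand, let-7d-3p, was not called (0.74).

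miR-140-3p, from within Wwp2 and best known from cartilage, was the most abundant of the microRNAs whose levels fell without overlap. It ran from 11.19 over 11.35 to 11.48 log2 CPM at 12 months and from 10.50 over 10.82 to 11.17 at 16.5 months, with a log2 fold change of -0.47 (SE 0.09, adjusted p = 0.000684, edgeR). miR-26b-5p, from an intron of the phosphatase gene Ctdsp1, was lower by a log2 fold change of -0.66 (SE 0.22, adjusted p = 0.0314), whereas its family member miR-26a-5p had 0.22 (adjusted p = 0.0984). Without the shallowest library the adjusted p of miR-26b-5p was 0.0557.

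Further microRNAs were higher by smaller amounts. miR-10a-5p, encoded in the Hoxb region of chromosome 11, ran from 10.42 over 10.97 to 11.34 log2 CPM at 12 months and from 11.02 over 11.54 to 12.15 at 16.5 months (0.67, SE 0.15, adjusted p = 0.00212). miR-10b-5p, with the same seed, had -0.16 (adjusted p = 0.658). miR-146a-5p, which restrains inflammatory signalling, was higher by 0.70 (SE 0.25, adjusted p = 0.0413) with 10 of 10 libraries above the mean of 12 months, and miR-146b-5p had 0.25 (adjusted p = 0.432). Of the miR-181 family, regulators of lymphocyte development, 1 of 4 was called, again near the 29.1% over all 103. miR-181b-5p ran from 4.61 over 5.22 to 5.55 and from 5.46 over 5.66 to 6.27 (0.52, SE 0.13, adjusted p = 0.00455), while miR-181a-5p had 0.29 (adjusted p = 0.102), miR-181d-5p 0.22 (adjusted p = 0.114) and miR-181c-5p -0.29 (adjusted p = 0.335).

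The remaining rises were small. Log2 fold changes were 0.43 for miR-186-5p (SE 0.12, adjusted p = 0.0121), from an intron of Zranb2, and 0.40 for miR-130a-3p (SE 0.11, adjusted p = 0.00814), the called 1 of 3 tested members of the list of miR-130 and its relatives. They were 0.37 for miR-23a-3p (SE 0.11, adjusted p = 0.0152), 1 of 4 of the clusters of miR-23, miR-27 and miR-24, and 0.40 for miR-30e-3p (SE 0.14, adjusted p = 0.0381), 1 of 7 of the miR-30 family. For miR-361-5p the value was 0.33 (SE 0.11, adjusted p = 0.0268), and for the identical rows miR-374b-5p and miR-374c-5p, whose hairpins overlap on opposite strands of the X chromosome at the non-coding RNA Ftx, it was 0.35 (SE 0.13, adjusted p = 0.047). Each of these lay above the mean of 12 months in 9 or 10 of 10 libraries. Without the shallowest library the adjusted p was 0.0539 for miR-361-5p and 0.0509 for miR-374b-5p, without the library of 12 months with the lowest miR-3969 it was 0.0847 for miR-374b-5p, and without the 4 libraries under 9% it was 0.0919 for miR-361-5p and 0.0762 for miR-30e-3p (edgeR). The cluster of miR-182 and miR-183, the miR-378 family and the miR-29 family had 0 of 1, 0 of 2 and 0 of 1 called. Over all 103, 29.1% were called, so these small counts are no result about the lists named in this paragraph.

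Among the 7 microRNAs that the study linked to memory performance, 1 was higher and 1 lower, miR-146a-5p and miR-148a-3p, with a median of -0.08. This is near the 29.1% called over all 103, so the count is no result about the list. The other 5 had log2 fold changes of -0.30 for miR-30a-3p, -0.15 for miR-192-5p, -0.08 for let-7b-5p, 0.27 for miR-130b-3p and 0.29 for miR-181a-5p. The study chose this list partly for change with age in these animals, so it is not independent evidence of a direction.

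To ask whether close relatives kept their proportions, the log2 ratio of their counts was taken within each library, which does not depend on the scaling between libraries. This test was added after the data had been seen. It covered 46 pairs with the same seed, in 15 seed groups, and 10 pairs of arms of the same hairpin. In each pair the ratio was written with the member of higher log2 fold change first, which fixes the direction. Of the 56 ratios, 12 (21.4%) differed between the ages at an adjusted p under 0.05 (two-sided permutation test, 100000 resamples), 8 of the same seed and 4 of the same hairpin, and in 0 (0%) were the groups free of overlap.

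The proportions of the miR-30 hairpins differed most clearly. The log2 ratio of miR-30e-3p to miR-30a-3p, which differ by G18A, ran from -0.94 over -0.77 to -0.26 at 12 months and from -0.29 over -0.05 to 0.54 at 16.5 months. It was higher by 0.72 (SE 0.11, permutation test, adjusted p = 0.0014), with 10 of 10 libraries above the mean of 12 months. The 3p arm of miR-30a also lost ground to its own 5p arm (0.50, SE 0.10, adjusted p = 0.0014), and miR-30e-3p gained on miR-30e-5p (0.44, SE 0.15, adjusted p = 0.0472). In the miR-26 family, the ratio of miR-26a-5p to miR-26b-5p rose by 0.83 (SE 0.19, adjusted p = 0.0144) in 10 of 10 libraries.

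The unequal arms of miR-15b (miR-15b-3p to miR-15b-5p, 0.45, SE 0.11, adjusted p = 0.00747) and of miR-93 (0.88, SE 0.28, adjusted p = 0.0461) were called too. Of the immune families, the ratio of miR-146a-5p to miR-146b-5p was higher by 0.55 (SE 0.20, adjusted p = 0.0461) and that of miR-181b-5p to miR-181c-5p by 0.91 (SE 0.31, adjusted p = 0.0461). The other called ratios were those of miR-16-5p to miR-15a-5p (0.23), miR-215-5p to miR-192-5p (0.49), miR-125a-5p to miR-125b-5p (0.49) and miR-181d-5p to miR-181c-5p (0.60), each at an adjusted p of 0.0461. The ratios of miR-10a-5p to miR-10b-5p (0.64, adjusted p = 0.13) and of miR-181b-5p to miR-181a-5p (0.25, adjusted p = 0.0595) did not pass the permutation test. Without the 4 libraries under 9% outside miR-486, 4 ratios passed, those of miR-30e-3p to miR-30a-3p (0.67, adjusted p = 0.0179), of the arms of miR-30a (0.50, adjusted p = 0.0196), of the arms of miR-15b (0.41, adjusted p = 0.0428) and of miR-26a-5p to miR-26b-5p (0.75, adjusted p = 0.0428).

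**Figure D3:**
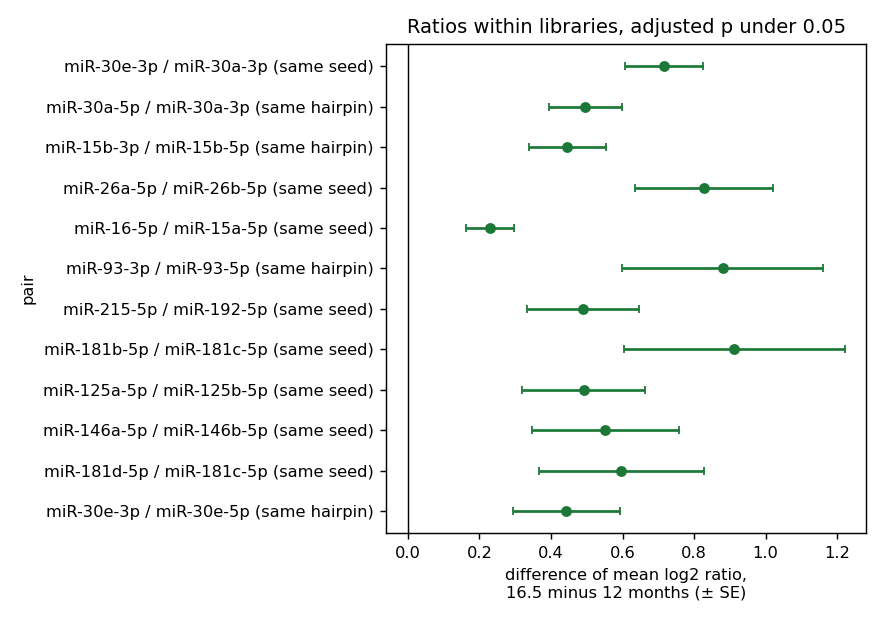
Difference of the mean log2 count ratio within libraries, 16.5 minus 12 months (x axis), for the 12 pairs of microRNAs with an adjusted p under 0.05 (y axis), with bars for ± SE. The difference is 0.23 for miR-16-5p to miR-15a-5p and 0.91 for miR-181b-5p to miR-181c-5p, and all are positive because the member of higher fold change was written first.

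The ages between did not form a simple gradient. On a scale common to the 40 libraries, both intermediate means lay between the end values for 4 of the 17 microRNAs that were higher (miR-342-3p, miR-10a-5p, miR-151-5p and miR-150-5p) and for 1 of the 13 that were lower (miR-532-5p), against 12 of all 103. The means of miR-10a-5p were 10.80, 11.02, 11.12 and 11.46 log2 CPM at 12, 13.5, 15 and 16.5 months, and those of miR-342-3p 4.86, 5.20, 5.29 and 5.97. Those of miR-532-5p were 5.41, 5.11, 5.36 and 4.26, so that most of its difference lay between the last 2 ages.

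Within an age, libraries varied along a common axis. In the levels centred by age, the first principal component held 62.7% of the variance and the second 10.1%. The loading was highest for miR-486a-3p (0.40), miR-423-5p (0.30), miR-25-5p (0.22) and let-7d-3p (0.22) and lowest for miR-451a (-0.18), miR-181c-5p (-0.13) and miR-21a-5p (-0.13). The 4 libraries under 9% outside miR-486 held 4 of the 5 highest scores. Both arms of miR-486 entered the axis (0.13 for miR-486a-5p), so that score and share are partly linked by construction. Across 90 microRNAs with a sequence, which share libraries and are not independent, the loading went with the GC content of the mature sequence (Pearson's r = 0.504, Spearman's rho = 0.494), whereas r was 0.0353 for the log2 fold change between the ages. Across the 103, the loading had r = 0.474 with the log2 fold change. Factors of unwanted variation, also taken from levels centred by age (RUVs approach), were added to the fit as an alternative. With 1 factor 40 microRNAs were called and with 2 factors 44. Of these, 29 and 30 had been called in the same direction in the main fit. The part of this axis in the results was not tested further, beyond the values given above without those libraries.

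**Figure D4:**
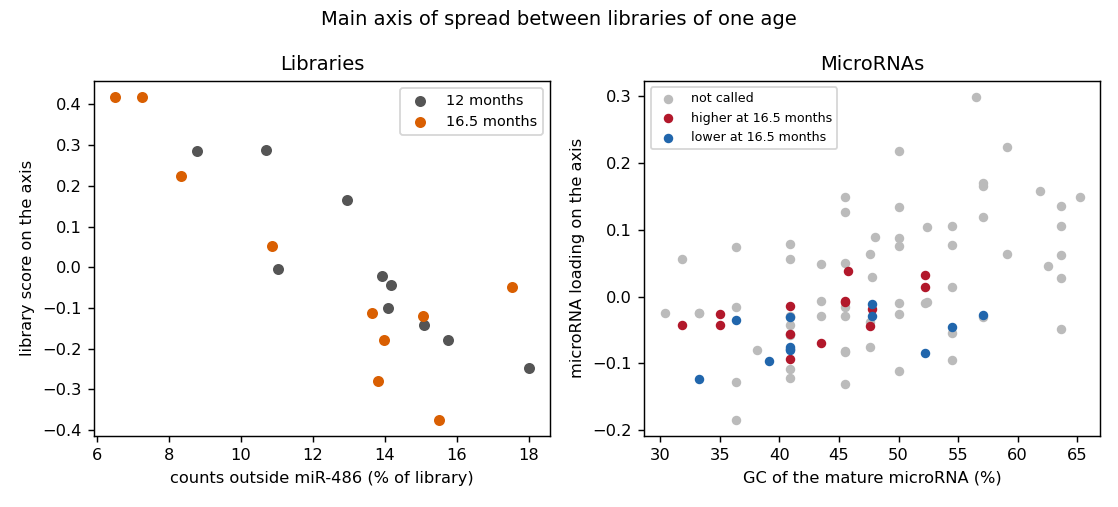
Left, score of each of the 20 libraries on the first axis of variation within ages (y axis) against the percent of counts outside miR-486 (x axis), coloured by age. Right, loading of 90 microRNAs on that axis (y axis) against the GC content of the mature sequence in percent (x axis), with red for those higher at 16.5 months, blue for lower and grey for not called. Libraries with a low share lie high on the axis, which is partly built in because miR-486 enters both measures. The loading rises with GC (r = 0.504).

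The called microRNAs shared few features of sequence. Median GC content was 44.5% for those that were higher (14 with a sequence), 40.9% for those lower (12) and 47.7% for those not called (64). The first base, which Argonaute reads in its own pocket, was U in 8 of the 12 lower, 4 of the 14 higher and 30 of the 64 not called, and C in 1, 5 and 14 of them. The spread between libraries had a median SD of 0.33 log2 at 12 months and 0.32 at 16.5 months, and it was larger at 16.5 months for 53 of the 103.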

How the data were processed

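The authors sequenced TruSeq small RNA libraries of total blood as 50-base single reads. They trimmed adapters with cutadapt, checked quality with FastQC 0.11.5, discarded reads under 18 bases and mapped to mm10 with miRDeep2. For counting, reads were matched to the known precursors of miRBase release 21 with 0 mismatches. Counts were summed per mature microRNA over genomic copies. The raw counts were deposited. The deposited normalized table was not used. Ages came from the labels and column names, which do not carry the replicate numbers of the labels.

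Tests used edgeR 4.0.16 under R 4.3.3 (TMM, glmQLFit and glmQLFTest, 2 ages only, Benjamini-Hochberg over 103 microRNAs, threshold 0.05). SE is the size of the log2 fold change divided by the root of its F. Levels used a prior count of 2 and ratios a pseudocount of 0.5. Totals, shares and ratios were compared by two-sided permutation tests (100000 resamples, numpy 2.4.6). The rule for naming took all microRNAs called, the 7 of the study's list, the 5 most abundant and tested relatives of called microRNAs. Those named only for a ratio, a marker list or the axis within ages fall outside it and were chosen after their values were seen. Members and lists were chosen with earlier results of these data known. Alternatives were DESeq2 1.42.0, limma 3.58.1 (voom), other scalings, filters, RUVs factors (the study used DESeq2 with RUVs) and libraries left out. Positions came from GENCODE M21 (GRCm38). The fit was tested on simulated data. It recovered 94.7% of changes of 1 log2 and 50% of changes of 0.5 log2, and 3.01% of its calls were false. Small changes that were not called may thus have been missed. Counts came from amplified reads without molecular identifiers, so they overstate independent molecules. No 2 libraries of an age were duplicates (90 pairs, chi-square over its degrees of freedom at least 37.83).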

Additional observations from a re-analysis of the deposited data

Results flagged for a closer look

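Of 130 groups of 10 libraries examined (the named microRNAs at each age), 9 held a library far from the others (a Dixon's ratio above its 95% critical value), where chance gives about 1 in 20. At 12 months, the lowest library was at 4.04 log2 CPM for miR-3969 (next 6.19) and at 3.65 for miR-30e-3p (next 4.27). At 16.5 months, the shallowest library was the lowest for miR-501-3p at 4.62, let-7g-5p at 5.75, miR-15b-5p at 7.78 and let-7i-5p at 8.32. Other libraries of 16.5 months were the lowest for miR-17-3p at 2.79 and let-7j at 4.98 and the highest for miR-26a-5p at 12.43. The depth of these libraries was not tested as a cause.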

How the results depend on the processing

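In 17 other settings, 22 to 44 microRNAs were called except with library totals alone (3, of which 1 higher and 2 lower) and with the numbers of the column names as a replicate block (18, 9 higher and 9 lower). Higher calls were 8 with no filter, and lower calls were 25 with the low filter (more than 1 read) and 20 and 21 with 1 and 2 RUVs factors. Similar numbers of calls do not mean the same microRNAs. Of the 30 main calls, 15 were called in the same direction with the low filter and 11 with no filter. Libraries numbered alike did not deviate together (r from -0.673 to 0.617, above 0.1 for 3 of 10, and 0 of 10 matched best with their own number), but weak correlation does not show that they mark different mice, and whether the numbers pair the samples is not stated. This pairing and the libraries left out for a low share or for miR-3969 were chosen after seeing the data. The 30 called microRNAs kept their sign in each of the 17 settings in which they were tested (miR-374c-5p in 16). miR-3969 and miR-532-5p were called in each, and 9 more in each but library totals alone. miR-150-5p and miR-15b-5p lost the call in 9. Over 65 named microRNAs, 962 of 1102 values kept direction and side of the threshold, 106 lost and 32 gained a call and 2 reversed. Both were of miR-92a-3p, at -0.21 (edgeR, adjusted p = 0.034) and -0.21 (adjusted p = 0.0364) with 1 and 2 RUVs factors, and the cause was not tested. The lower total counts at 16.5 months did not pass as a difference of medians (-2078745.5, permutation p = 0.0641), and of the 56 ratios 4 passed without the libraries under 9%. Depth limits the low microRNAs, such as miR-532-5p with 11 to 542 counts.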
